A study of Mus musculus with 24 samples.

Results

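The unfolded protein response and the ATF4 amino acid programme were followed through 40 genes, taken by symbol from the count tables, which list 24421 genes. The 40 symbols comprise 3 stress sensors of the endoplasmic reticulum (ER), 4 transcription factors, 11 ER chaperones, 3 disulfide isomerases, 5 genes of ER-associated degradation and translocation, 5 feedback genes of the stress response, 5 enzymes of serine and one-carbon metabolism, asparagine synthetase and 3 amino acid transporters. Poly(A) RNA was sequenced from 2 sorted bone marrow populations, common lymphoid progenitors (CLPs), gated as Lin-IL-7R+, and B cell progenitors, gated as B220+IgM-IL-7R+. There were 4 genotypes with 3 mice each, and each of the 12 mice gave a CLP library and a B cell progenitor library. WT stands for PLCgamma1+/+PLCgamma2+/+, G1KO for PLCgamma1-/-PLCgamma2+/+, G2KO for PLCgamma1+/+PLCgamma2-/- and DKO for PLCgamma1-/-PLCgamma2-/-. Per the study's methods, a floxed Plcg1 allele was deleted by Cre under the interferon-inducible Mx1 promoter after PolyI:C injection, which control donors also received, while Plcg2 was absent from the germline. The sorted cells were CD45.2+ donor cells in irradiated CD45.1+ recipients, so the loss was not limited to the lymphoid lineage, and the number of donors behind each genotype was not given in the sources used here.

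The ER folds secreted and membrane proteins, and unfolded protein there activates 3 sensors, IRE1α (Ern1), PERK (Eif2ak3) and ATF6. IRE1α splices the mRNA of XBP1, ATF6 is released as a transcription factor, and both induce chaperones and degradation genes, while PERK phosphorylates eIF2α, which lowers general translation but favours that of ATF4. ATF4 is also induced by other eIF2α kinases, such as GCN2 in amino acid shortage, and drives amino acid transport and synthesis together with ATF3 and CHOP (Ddit3). Much of this control is exerted on translation, splicing and cleavage, which counts of reads per gene do not measure. The pathway is best known in the B lineage for the need of plasma cells for XBP1.

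Promoter sequence was compared first, since the ER response acts through short elements near the start site. RefSeq promoter windows of GRCm38.p6, from 250 bases before to 50 bases after the start, were matched for 36 of the 40 genes. Atf6, Hyou1, Manf and Slc7a5 were not matched. The ER stress response element (ERSE) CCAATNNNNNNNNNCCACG was searched on both strands and stood in 8 of the 36 genes, or 22.2%, against 0.119% of 32851 windows. These were Hspa5, Hsp90b1, Calr, Canx, Creld2, Dnajc3, Pdia6 and Syvn1. The second form of the element, ERSE-II, stood in Herpud1 and Dnajb11, or 5.56%, against 0.0365% of windows. The core of the element bound by ATF4 dimers, TGATGNAA, stood in Asns, Atf3, Chac1, Herpud1, Slc7a11 and Trib3, or 16.7%, against 3.97%. The element TGACGTGG stood in 0.676% of windows and in no window of these genes. Herpud1 held both an ERSE-II and a TGATGNAA core. A match is a match of letters, not a measured binding site. The 36 genes were chosen as genes of these responses, so their higher shares are not a test. Their shares also count genes, while the others count windows. The 250 bases before the start of 3 genes on which the results below turn are shown, 5′ to 3′ on the strand of the gene, with these elements in capitals. Hspa5 (chr2:34771840-34772089, plus strand) encodes the chief ER chaperone BiP, Herpud1 (chr8:94386179-94386428, plus strand) had the lowest ratio of DKO to WT, and Atf3 (chr1:191183334-191183583, minus strand) had the highest ratio of highest to lowest library in B cell progenitors.
Hspa5: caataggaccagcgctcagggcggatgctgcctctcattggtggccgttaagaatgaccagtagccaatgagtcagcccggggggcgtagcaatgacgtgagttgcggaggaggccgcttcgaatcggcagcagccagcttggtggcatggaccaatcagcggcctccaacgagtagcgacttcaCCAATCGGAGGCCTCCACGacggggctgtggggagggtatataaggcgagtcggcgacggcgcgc
Herpud1: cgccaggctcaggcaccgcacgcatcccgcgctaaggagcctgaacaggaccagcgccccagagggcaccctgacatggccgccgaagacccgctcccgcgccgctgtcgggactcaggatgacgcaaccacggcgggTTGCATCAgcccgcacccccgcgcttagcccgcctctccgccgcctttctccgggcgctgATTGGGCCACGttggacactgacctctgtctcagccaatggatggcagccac
Atf3: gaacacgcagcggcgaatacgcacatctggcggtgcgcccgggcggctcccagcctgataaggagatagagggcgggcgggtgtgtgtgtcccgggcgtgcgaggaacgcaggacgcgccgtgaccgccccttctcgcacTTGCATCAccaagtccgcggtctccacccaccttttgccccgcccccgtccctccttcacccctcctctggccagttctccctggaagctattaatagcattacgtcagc
The capitals mark the first form of the ER element in Hspa5, the ATF4 core on the opposite strand and then the second form of the ER element in Herpud1, and the ATF4 core on the opposite strand in Atf3.

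Reads on genes ranged from 4232345 to 33219995 per library in CLPs and from 1479582 to 25057223 in B cell progenitors, where 59.9% to 87.3% of counted reads lay on no gene against 17.9% to 45.2% in CLPs. Levels are given as CPM, counts scaled to a common library size with the TMM factor of each library. Plcg2 stood at 182 to 281 CPM in the 12 libraries with Plcg2 and at 72.1 to 137 CPM in the 12 without it, while the counts of Plcg1 overlapped between genotypes and did not check its deletion. Xist stood at 1293 to 2313 CPM in the G1KO and DKO libraries and at 23.6 to 742 CPM in the WT and G2KO libraries, and Ddx3y at 1.44 to 19.1 and 98.05 to 191 CPM, so that sex and loss of PLCγ1 cannot be told apart in comparisons of G1KO or DKO with WT or of DKO with G2KO. Il7r was read in every library, at 134 to 505 CPM, and all 10 markers of B cell progenitors exceeded 1 CPM in the median of both populations, with summed levels of 1033 to 7090 CPM in CLPs and 2313 to 8882 CPM in B cell progenitors. The 8 neutrophil and myeloid progenitor markers summed to 2250 to 8886 CPM in CLPs and to 1376 to 8036 CPM in B cell progenitors, with Mpo between 637 and 4334 CPM over all libraries. In such bulk samples fewer cells of a type and less RNA per cell cannot be told apart.

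All 40 genes were read in both populations, and the same 5 genes held the first 5 places, and the same 5 the last, in each. Levels between genes are compared per kilobase of exon. By median over the 12 libraries, Calr (calreticulin, a chaperone of glycoproteins), Hsp90b1 (GRP94, the ER form of HSP90) and Hspa5 held the first 3 places in both populations, with medians of 387, 349.9 and 299 CPM per kilobase in CLPs and 316, 380.4 and 301 in B cell progenitors. Their ranges overlapped, so the order of the 3 was not set beyond the spread. Atf4 followed at 215 CPM per kilobase in CLPs and 201 in B cell progenitors, and Pdia3, which forms disulfide bonds in glycoproteins, at 209 and 189.8. At the other end stood Slc7a11, the cystine transporter xCT, at 0.218 and 0.311 CPM per kilobase, Chac1, which degrades glutathione, at 0.577 and 0.558, and Trib3, a pseudokinase that restrains ATF4, at 2.04 and 1.999. Asns, the enzyme that makes asparagine, stood near them at 4.26 and 3.53, well below the serine pathway enzyme Phgdh at 83.996 and 64.8. Chac1 had 0 to 99 reads per CLP library and was the one gene of the 40 left out of the tests in B cell progenitors, where it had 1 to 21 reads.

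**Figure D1:**
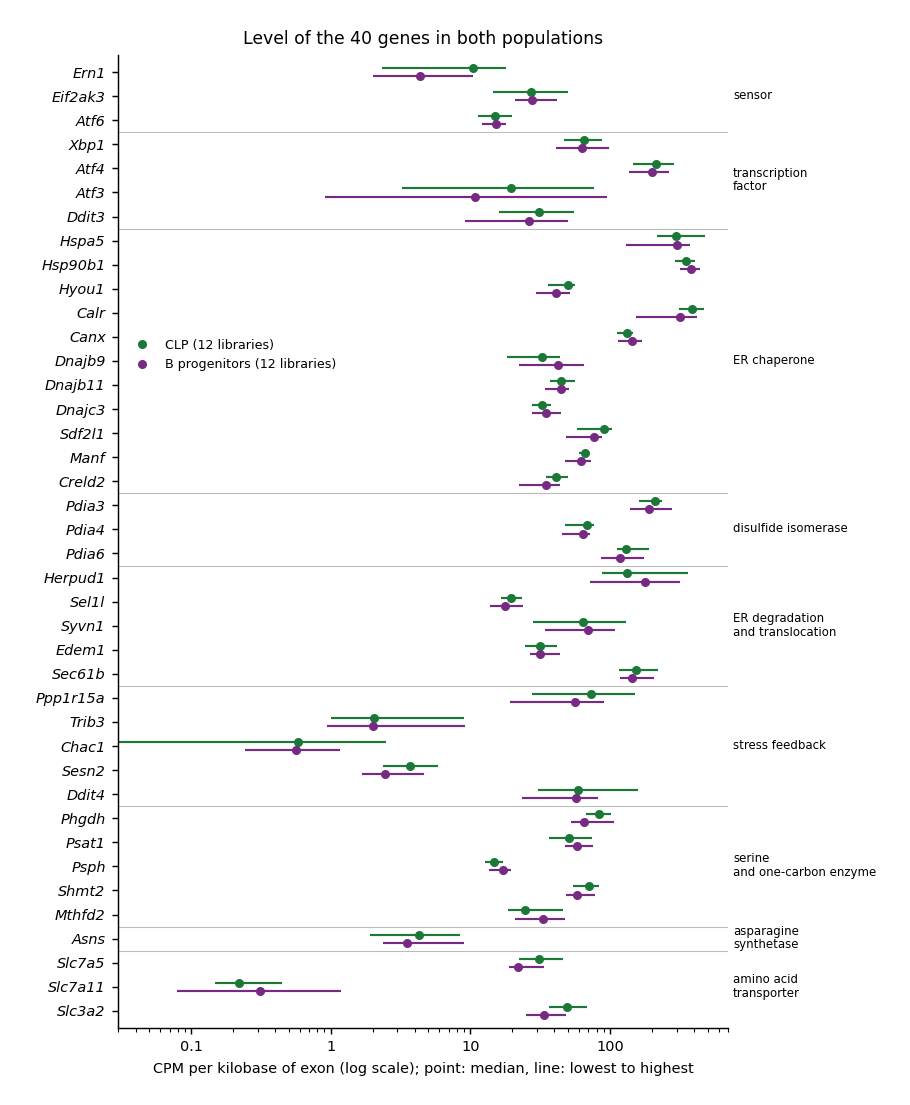
Level of each gene in CPM per kilobase of exon on a log axis, by role, with the median of 12 libraries as a point and the lowest to highest library as a line. The line of Chac1 in CLPs runs to the edge because its lowest library stood at 0. Atf3 spans the widest range in B cell progenitors, from 0.913 to 95.2, while Manf in CLPs spans 60.1 to 69.6.

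Atf3 had the widest ratio of highest to lowest library among the 40 genes in B cell progenitors, and it followed the replicate number of the labels. Atf3, an early transcription factor of many stresses, had 2.16, 49.4 and 177 CPM in WT, 3.34, 20.8 and 205 in G1KO, 2.39, 25.8 and 182 in G2KO and 1.97, 12.995 and 108 in DKO in B cell progenitors, each triplet in the order of replicates 1, 2 and 3. The 4 libraries numbered 1 lay between 1.97 and 3.34 CPM, those numbered 2 between 12.995 and 49.4 and those numbered 3 between 108 and 205, so the numbers did not overlap in any genotype. In CLPs Atf3 had 24.7, 50.9 and 159 CPM in WT, 30.3, 81.2 and 166 in G1KO, 19.9, 26.9 and 69.9 in G2KO and 7.01, 33.02 and 138 in DKO. Replicate 1 was again the lowest and replicate 3 the highest in all 4 genotypes. Ddit3, the pro-death transcription factor CHOP, had 8.15, 26.4 and 39.6 CPM in WT, 13.5, 15.5 and 30.2 in G1KO, 13.9, 24.2 and 44.6 in G2KO and 11.1, 22.3 and 36.001 in DKO in B cell progenitors. It had 17.9, 27.03 and 48.5 CPM in WT, 14.2, 28.4 and 29.6 in G1KO, 16.5, 22.7 and 36.3 in G2KO and 16.3, 28.6 and 49.2 in DKO in CLPs. The order of the numbers was that of Atf3 in every genotype and both populations, over a narrower range. Atf4 itself had 294, 401 and 443 CPM in WT, 246, 304 and 348 in G1KO, 236, 407 and 453 in G2KO and 246, 344 and 457 in DKO in B cell progenitors and 319.95, 421 and 433 CPM in WT, 331, 420.01 and 352 in G1KO, 323, 353 and 389.5 in G2KO and 252, 399 and 499 in DKO in CLPs. Its libraries numbered 1 were the lowest of their genotype in all 8 groups.

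Some feedback genes and chaperones, picked after their values were seen, also followed the number. Other ER genes went the other way. Pdia3 and Pdia6 were highest in number 1 in all 4 genotypes in CLPs and in 3 of 4 in B cell progenitors. Calr was highest in number 1 in 3 of 4 genotypes in each population. Ppp1r15a (GADD34), the phosphatase subunit that reverses eIF2α phosphorylation, had 77.1, 181 and 243 CPM in WT, 60.1, 119 and 226 in G1KO, 58.98, 156 and 246 in G2KO and 56.4, 171 and 264 in DKO in B cell progenitors, where the 3 numbers did not overlap. In CLPs it had 197, 218 and 235 CPM in WT, 113, 446 and 211 in G1KO, 134, 231 and 134 in G2KO and 81.1, 373 and 305 in DKO. There the 3 numbers overlapped. Ddit4 (REDD1), an inhibitor of mTOR complex 1, had 64.04, 144 and 109 CPM in WT, 45.3, 89.5 and 97.3 in G1KO, 41.05, 102 and 107 in G2KO and 53.1, 133 and 126 in DKO in B cell progenitors and 103, 163 and 104 CPM in WT, 53.6, 279 and 71.2 in G1KO, 54.8, 158 and 57.2 in G2KO and 59.5, 268 and 166 in DKO in CLPs. In CLPs its highest library was number 2 in every genotype, so its pattern was not that of Atf3. Hspa5 had 485, 1211 and 1355 CPM in WT, 731, 966 and 1359 in G1KO, 740.02, 1128 and 1409 in G2KO and 854, 1132 and 1158 in DKO in B cell progenitors. It had 883, 1071 and 1171 CPM in WT, 843, 1802.7 and 1270.2 in G1KO, 809.9, 1442 and 1008 in G2KO and 865, 1516 and 1188 in DKO in CLPs. Number 1 was the lowest of its genotype in all 8 groups. Dnajb9 (ERdj4), a cochaperone of BiP, had 67.2, 147 and 149 CPM in WT, 55.04, 105 and 105 in G1KO, 55.8, 148 and 159.8 in G2KO and 61.9, 90.9 and 136 in DKO in B cell progenitors and 69.9, 99.3 and 100.1 CPM in WT, 72.8, 104 and 77.9 in G1KO, 68.5, 82.97 and 89.5 in G2KO and 45.3, 75.1 and 108 in DKO in CLPs, again with number 1 lowest in all 8 groups.

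**Figure D2:**
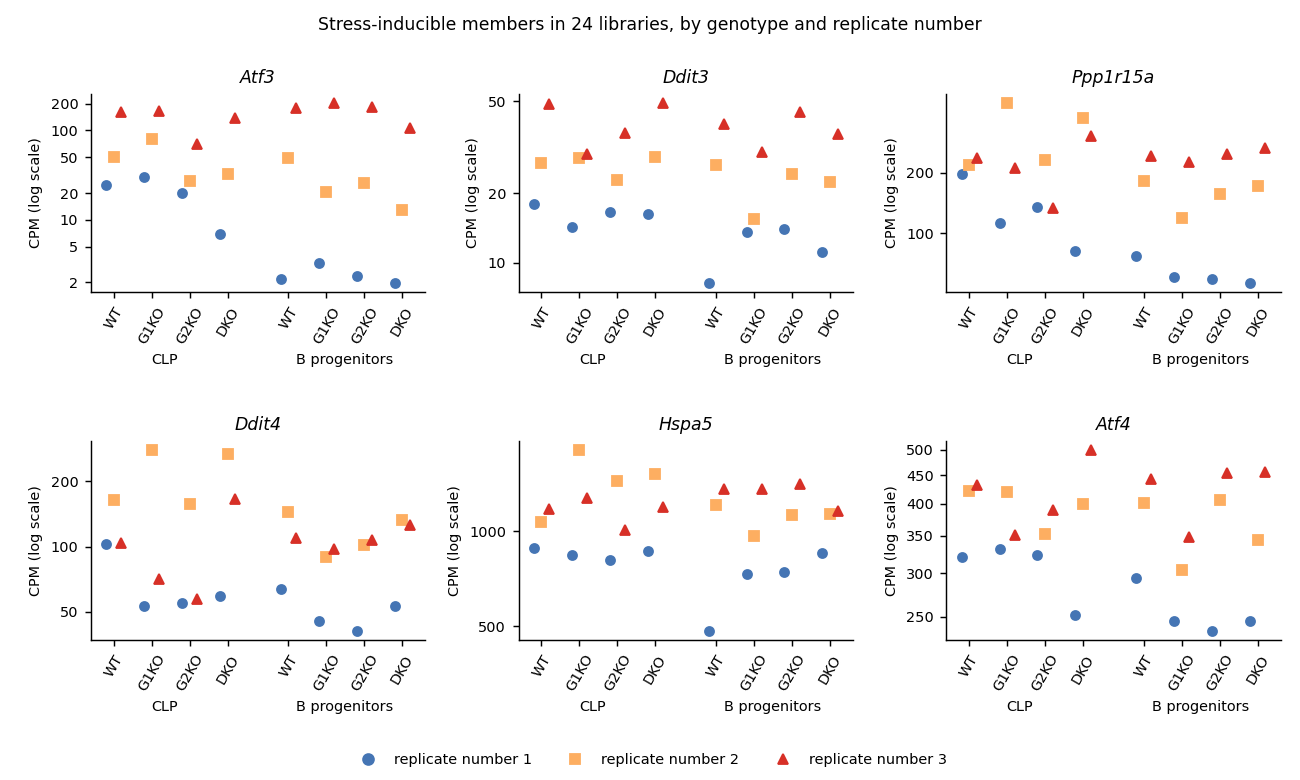
CPM on a log axis of 6 genes in each of the 24 libraries, by population and genotype, with the symbol and colour for the replicate number. In B cell progenitors the circles (number 1) of Atf3 sit between 1.97 and 3.34 CPM and the triangles (number 3) between 108 and 205 in all 4 genotypes.

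A term for the replicate number, added to the edgeR fit after these values were seen, was tested over all genes beside the genotype. A gene was called at an adjusted p not above 0.05 and a difference of at least 0.5 on the log2 scale between any 2 numbers. In B cell progenitors 11 of the 39 tested genes were called, or 28.2%, against 5.0% of 15001 genes. These were Atf3 (adjusted p = 1.2e-05), Ppp1r15a, Ddit4, Dnajb9, Ddit3, Herpud1, Atf4, Ern1, Hspa5, Syvn1 and Mthfd2 (adjusted p = 0.0422). Atf3 was higher by 6.19 in replicate 3 than in replicate 1 on the log2 scale, Ppp1r15a by 1.95, Ddit3 by 1.68, Dnajb9 by 1.17, Ddit4 by 1.11 and Hspa5 by 0.92. Ern1 was the one called gene whose fitted level was highest in number 1. In CLPs 3 of 40 were called, Atf3, Ddit3 and Ddit4, or 7.50%, against 1.39% of 15209 genes. The count in CLPs rested on single libraries, for it fell to 0 without G1KO replicate 1, DKO replicate 2 or G2KO replicate 3 and to 1 without DKO replicate 1, and it reached 7 without WT replicate 1 and 11 without WT replicate 2. The count in B cell progenitors lay between 7, without G2KO replicate 1, and 17, without WT replicate 1. With DESeq2 11 members were called in CLPs and 13 in B cell progenitors. The shares over all genes for DESeq2 and for fits with a library left out are not given here. These counts are therefore not read as a result about the members. Both populations came from the same mice, and over the 39 genes the log2 differences between replicates 3 and 1 had a Pearson correlation of 0.887 and a Spearman correlation of 0.881 between them, a description across genes in which Atf3 lies far from the rest.

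**Figure D3:**
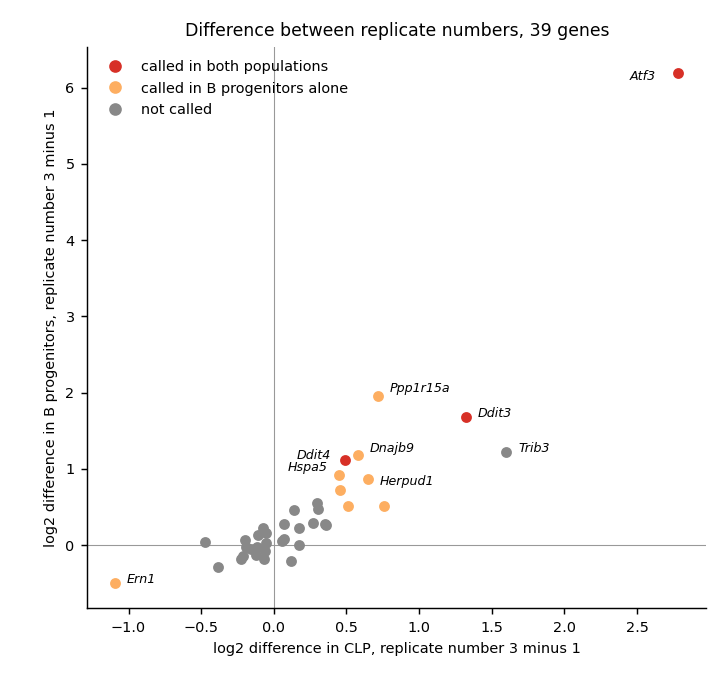
Fitted log2 difference between replicates 3 and 1 in CLPs (horizontal) and B cell progenitors (vertical) for the 39 genes tested in both. Atf3 lies farthest out at 2.78 and 6.19, and most genes lie near 0 on both axes.

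The labels do not say what the replicate number stands for. Other genes moved with it. All 15 genes of a list of immediate early genes were called in B cell progenitors, each higher in replicate 3 than in replicate 1, and none of the 15 in CLPs. Their summed level in B cell progenitors was 2408 to 4017 CPM in the libraries numbered 1, 4639 to 8195 in those numbered 2 and 9125 to 12803 in those numbered 3, and in CLPs it was 3455 to 13762, 8717 to 36836 and 6271 to 12331. Of 14 cytosolic and mitochondrial heat shock genes tested, 6 were called in B cell progenitors and 4 in CLPs, all higher in replicate 3 than in 1, among them Hspa1a and Hspa1b. Their order was not that of Atf3 throughout. Summed over 15 such genes, the level in CLPs was 4880 to 5188, 6187 to 7680 and 5005 to 6495 CPM in numbers 1, 2 and 3. In B cell progenitors the sum was 4531 to 4983, 5755 to 7777 and 5264 to 6869 CPM. Of 24 further ER chaperones and folding enzymes, 3 were called in B cell progenitors, Dnajc10, Ero1l and Cnpy2, and all 3 were lower in replicate 3 than in replicate 1. The called ER genes did not all move one way. The share of reads on no gene was 61.4% to 71.4% in the B cell progenitor libraries numbered 1, 60.3% to 87.3% in those numbered 2 and 59.9% to 74.9% in those numbered 3. With that share as a covariate 10 members were called in B cell progenitors and 2 in CLPs, again without a share over all genes. The part of these in the differences of the 40 genes was not tested.

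The study asked how the loss of both PLCγ isoforms changes lymphoid progenitors and their response to IL-7. In CLPs 0 of the 40 genes were called between DKO and WT by edgeR, at an adjusted p not above 0.05 and a log2 fold change of at least 0.5, against 0.0921% of 15209 genes, and 0 by DESeq2. With an unadjusted p up to 0.05 there were 7 of 40, 6 higher and 1 lower, against 7.52% of all genes. The median log2 fold change of the 40 was 0.099, against -0.033 over all genes. In B cell progenitors 0 of 39 were called by edgeR, against 0.893% of 15001 genes, and 1 by DESeq2. DESeq2 called more of all genes than edgeR did in both populations, as given in the last section. With an unadjusted p up to 0.05 there were 5 of 39, 2 higher and 3 lower, against 12.3% of all genes, and the medians were -0.012 for the 39 and -0.018 for all genes. The lowest adjusted p among the members was 0.581 in CLPs (Asns) and 0.185 in B cell progenitors (Atf6). The 95% interval of the log2 fold change lay within 1 of 0 for 28 of the 40 genes in CLPs and for 27 of the 39 in B cell progenitors, so a log2 fold change of 1 in either direction lay outside the interval for these genes, and the intervals of the others passed 1 in at least one direction. The 3 DKO libraries lay wholly above the 3 WT libraries for 7 of 40 genes in CLPs (6.27% of all genes) and for 2 of 39 in B cell progenitors (9.06%), and wholly below for 0 (7.32%) and 3 (10.1%).

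Markers of other cells were summed in the same groups. The summed level of 8 neutrophil and myeloid progenitor markers was 2249.9 to 3642 CPM in WT and 3666 to 8017 CPM in DKO in CLPs, and 1393 to 4390.3 and 2749.7 to 6773 CPM in B cell progenitors, with none called in either population. WT and DKO did not overlap in CLPs and overlapped in B cell progenitors. In CLPs the sum was 3053 to 8886 CPM in G1KO and 2482 to 7943 CPM in G2KO, and each overlapped both WT and DKO. The 6 mature B cell markers summed to 376 to 1172 CPM in WT and 226 to 518 CPM in DKO in CLPs, and to 627 to 963 and 172 to 490.1 CPM in B cell progenitors, where WT and DKO did not overlap and Cd22 was called lower. Of 6 plasma cell markers, Sdc1 and Irf4 were called lower in DKO in B cell progenitors, while the summed level was 919 to 1441 CPM in WT and 1096 to 2292 CPM in DKO. The 7 plasmacytoid dendritic cell markers summed to 897 to 1015 CPM in WT and 1213 to 1578 CPM in DKO in B cell progenitors, without overlap and with none called. Of 8 erythroid markers, 2 exceeded 1 CPM in the median. The part of these cells in the values of the 40 genes was not tested.

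**Figure D4:**
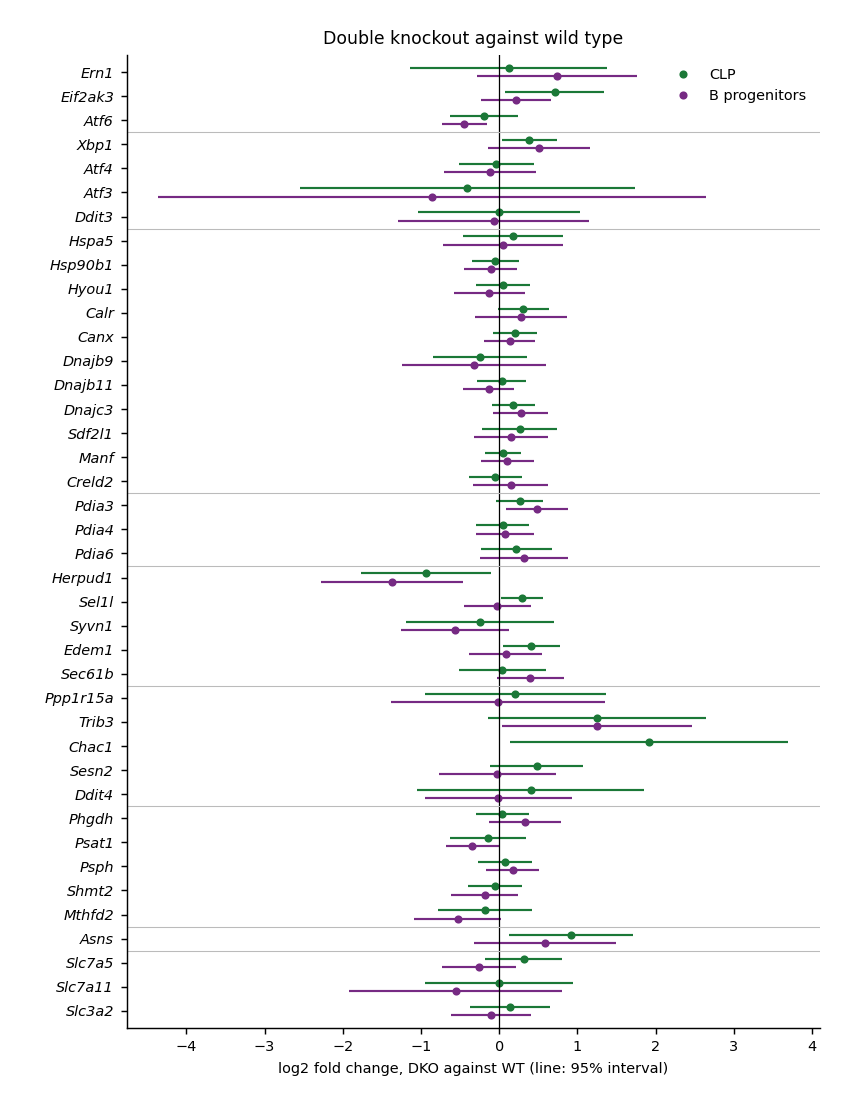
Fitted log2 fold change of DKO against WT with its 95% interval for the 40 genes in CLPs and the 39 tested in B cell progenitors, in the order of their roles. Herpud1 lies lowest in both populations, at -0.93 and -1.37, and the interval of Atf3 in B cell progenitors, -4.36 to 2.64, is the widest. The fit held no term for the replicate number.

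Among the sensors, Atf6 had the lowest adjusted p of DKO against WT in B cell progenitors. It had 126, 111 and 131 CPM in WT, 111, 101 and 125 in G1KO, 109.6, 127 and 95.2 in G2KO and 87.8, 90.7 and 92.1 in DKO in B cell progenitors. All 3 DKO libraries lay below every library of the other genotypes, and the log2 fold change from WT was -0.45 ± 0.13 (SE, adjusted p = 0.185). DESeq2 gave -0.44 at an adjusted p of 0.0349, short of the minimum log2 fold change of 0.5. In CLPs it had 144, 105 and 96.8 CPM in WT, 126, 128 and 94.6 in G1KO, 122, 118 and 82.2 in G2KO and 111, 107 and 86.7 in DKO, where the genotypes overlapped. Eif2ak3 had 70.2, 151 and 126 CPM in WT, 102, 83.5 and 99.2 in G1KO, 143, 89.9 and 135 in G2KO and 135, 192 and 242 in DKO in CLPs, so that 2 of the 3 DKO libraries lay above all others. Its log2 fold change from WT was 0.71 ± 0.29 (SE, adjusted p = 0.609), and 0.43 without WT replicate 1. The genotypes overlapped in B cell progenitors, where it had 136, 149 and 153 CPM in WT, 101, 128 and 122 in G1KO, 128, 202 and 131 in G2KO and 125, 203 and 180.1 in DKO. Ern1 had 148, 18.99 and 58.6 CPM in WT, 102, 94.7 and 74.97 in G1KO, 139, 103 and 69.9 in G2KO and 132, 69.2 and 47.97 in DKO in CLPs and 33.5, 16.3 and 37.8 CPM in WT, 81.9, 33.2 and 62.1 in G1KO, 84.9, 26.6 and 30.6 in G2KO and 68.1, 33.7 and 46.7 in DKO in B cell progenitors. WT replicate 2 was the lowest library in both populations, and the DKO libraries overlapped those of WT.

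No transcription factor was called between DKO and WT in either population by edgeR without a term for the replicate number. Xbp1, the factor that IRE1α activates, had 136, 112 and 146 CPM in WT, 159.9, 163 and 182 in G1KO, 174, 155 and 135 in G2KO and 209, 158 and 152 in DKO in CLPs, where the 3 DKO libraries lay above the 3 WT libraries with a log2 fold change of 0.38 ± 0.16 (SE, adjusted p = 0.621). Without DKO replicate 1 it was 0.21. The 3 G1KO libraries also lay above the 3 WT libraries in CLPs. Xbp1 had 99.1, 119 and 160.4 CPM in WT, 171, 98.7 and 173 in G1KO, 213, 103 and 136 in G2KO and 236, 141 and 163 in DKO in B cell progenitors, where WT and DKO overlapped. These counts do not part the spliced from the unspliced form. For Atf4 the log2 fold change was -0.038 ± 0.22 (SE, adjusted p = 0.978) in CLPs and -0.12 ± 0.27 (SE, adjusted p = 0.879) in B cell progenitors, with 95% intervals of -0.52 to 0.44 and -0.71 to 0.47. For Atf3 the interval in B cell progenitors ran from -4.36 to 2.64, in a fit without the replicate number. Between libraries of the same number, DKO minus WT in log2(CPM + 0.5) was -0.11, -1.89 and -0.71 for numbers 1, 2 and 3 there and -1.74, -0.62 and -0.21 in CLPs, lower in DKO at each number. So were 20.5% of all genes in B cell progenitors and 17.1% in CLPs. At number 1 in B cell progenitors Atf3 had 22 reads in WT and 6 in DKO. For Ddit3 the intervals were -1.04 to 1.03 in CLPs and -1.29 to 1.15 in B cell progenitors, again without the replicate number. Its differences within number were -0.14, 0.078 and 0.019 in CLPs and 0.43, -0.24 and -0.14 in B cell progenitors.

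No chaperone was called between DKO and WT in either population. The log2 fold changes of the 11 genes ranged from -0.24 (Dnajb9) to 0.31 (Calr) in CLPs and from -0.32 (Dnajb9) to 0.28 (Calr) in B cell progenitors, and none had an unadjusted p up to 0.05. For Hsp90b1 the intervals were -0.35 to 0.25 in CLPs and -0.45 to 0.23 in B cell progenitors, and for Hspa5 -0.46 to 0.82 and -0.72 to 0.82. The fit held no term for the replicate number. Within number, DKO minus WT of Hspa5 in log2(CPM + 0.5) was 0.82, -0.097 and -0.23 in B cell progenitors. Calr and the lectin chaperone Canx were among the genes whose DKO libraries lay wholly above WT in CLPs, at 928 ± 102 against 745 ± 49.5 CPM and 599 ± 10.7 against 517 ± 45.9 CPM (mean ± SD, n = 3). The G1KO libraries of Calr also lay wholly above WT there, at 913 ± 75.4 CPM (mean ± SD, n = 3). The cochaperones Dnajb11, Dnajc3 and Sdf2l1, the nucleotide exchange factor Hyou1, and Manf and Creld2, small proteins of the ER lumen induced in ER stress, ranged over their 24 libraries from 109.9 to 183 CPM, 142 to 230.003, 53.7 to 114, 141 to 268, 118 to 179 and 30.6 to 68.8. Of the disulfide isomerases, Pdia3 had 385, 501 and 518 CPM in WT, 621, 478 and 533 in G1KO, 655, 436 and 511 in G2KO and 764, 617 and 587 in DKO in B cell progenitors, with the DKO libraries above those of WT and a log2 fold change of 0.49 ± 0.18 (SE, adjusted p = 0.300). In CLPs it had 584, 449.98 and 492 CPM in WT, 658, 544 and 589 in G1KO, 606, 573 and 497 in G2KO and 647, 623 and 572 in DKO. Pdia4 and Pdia6 had log2 fold changes of 0.046 and 0.22 in CLPs and of 0.070 and 0.31 in B cell progenitors.

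Herpud1, part of a degradation complex in the ER membrane, had the lowest ratio of DKO to WT of all members in both populations. It had 348, 617 and 569.96 CPM in WT, 185, 409 and 351 in G1KO, 140.3, 499 and 364 in G2KO and 145, 231 and 215 in DKO in B cell progenitors. The DKO libraries lay below all 3 WT libraries, at a mean of 197 ± 45.3 against 511 ± 144 CPM (SD, n = 3), and the G1KO and G2KO libraries overlapped both groups. The log2 fold change was -1.37 ± 0.42 (SE, adjusted p = 0.193) by edgeR with all genotypes and no term for the replicate number in the fit. Between libraries of the same number the difference in log2(CPM + 0.5) was -1.25, -1.42 and -1.41. Of all genes, 20.5% were lower in DKO at each number there. DESeq2 called Herpud1 at an adjusted p of 0.0240, and edgeR on the libraries of DKO and WT alone at 0.0342. DESeq2 also called more of all genes than the main fit did, as given in the last section. The share over all genes for DKO and WT alone is not given here. In CLPs Herpud1 had 176, 701 and 433 CPM in WT, 218, 310.5 and 285 in G1KO, 193, 238 and 266 in G2KO and 169.8, 261 and 258 in DKO. WT replicate 1 lay among the DKO libraries there, and the log2 fold change was -0.93 ± 0.38 (SE, adjusted p = 0.609). Without WT replicate 2 it was -0.39. Within number the differences in CLPs were -0.054, -1.42 and -0.74. Replicate 1 was the lowest Herpud1 library in all 4 genotypes of both populations. The test of a difference between the populations gave an adjusted p of 0.9998. Syvn1, the ubiquitin ligase HRD1 of the same complex, had 268, 354 and 312 CPM in WT, 175, 245 and 247 in G1KO, 171, 398 and 266 in G2KO and 125, 291 and 216 in DKO in B cell progenitors and 102, 479 and 339 CPM in WT, 184, 216 and 263 in G1KO, 231, 195 and 239 in G2KO and 164, 275 and 339 in DKO in CLPs. In CLPs WT replicate 2 was the highest library for both genes, and WT replicate 1 was the lowest for Syvn1. Sel1l, the partner of HRD1, and Edem1, a mannosidase-like factor that hands on misfolded glycoproteins, had DKO libraries wholly above WT in CLPs, with means of 135 ± 14.99 against 109.6 ± 5.35 CPM and 201 ± 36.7 against 149.8 ± 11.8 CPM (SD, n = 3) and adjusted p of 0.630 and 0.609. The G1KO libraries also lay wholly above WT for both genes, at means of 130.5 ± 9.58 and 192 ± 16.1 CPM, and the G2KO libraries for Edem1, at 201 ± 38.8 CPM. Without DKO replicate 1 the log2 fold change of Edem1 was 0.24, against 0.41 with it. Sec61b, a subunit of the translocation channel, had log2 fold changes of 0.041 in CLPs and 0.40 in B cell progenitors.

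Of the feedback genes, Trib3 was the highest in DKO by ratio in B cell progenitors. It had 3.44, 5.58 and 4.98 CPM in WT, 1.91, 3.27 and 6.49 in G1KO, 2.39, 2.69 and 4.66 in G2KO and 2.95, 18.7 and 10.9 in DKO there. It had 2.03, 5.36 and 6.99 CPM in WT, 2.101, 4.95 and 6.35 in G1KO, 2.53, 2.58 and 3.297 in G2KO and 2.96, 13.3 and 18.3 in DKO in CLPs. In each population DKO replicates 2 and 3 lay above all 9 libraries of the other genotypes, while DKO replicate 1 lay among them. Replicate 1 was the lowest Trib3 library of its genotype in all 8 groups. The log2 fold change of DKO against WT was 1.25 ± 0.64 (SE, adjusted p = 0.690) in CLPs and 1.25 ± 0.56 (SE, adjusted p = 0.393) in B cell progenitors, where it was 0.61 without DKO replicate 2. Chac1 had 0.868, 0.730 and 0.696 CPM in WT, 0.780, 1.19 and 0.0977 in G1KO, 1.03, 1.02 and 0 in G2KO and 1.57, 3.12 and 4.08 in DKO in CLPs, so that the DKO libraries lay above all others, at 33, 35 and 99 reads against 12, 3 and 23 reads in WT. Its log2 fold change was 1.91 ± 0.81 (SE, adjusted p = 0.631), with an interval of 0.13 to 3.69, and it rests on these few reads. With the share of reads on no gene as a covariate it was 0.39. It had 1.18, 0.429 and 0.754 CPM in WT, 1.91, 1.13 and 1.02 in G1KO, 0.399, 0.528 and 0.666 in G2KO and 1.64, 0.901 and 0.926 in DKO in B cell progenitors, at 5, 21 and 7 reads in DKO and 12, 4 and 10 in WT, and WT and DKO overlapped. Sesn2, a sensor that holds back mTOR complex 1, had 12.9, 8.28 and 12.2 CPM in WT, 10.5, 20.5 and 14.1 in G1KO, 12.1, 13.6 and 9.89 in G2KO and 16.02, 18.8 and 12.7 in DKO in CLPs and 5.795, 7.08 and 12.9 CPM in WT, 10.98, 8.43 and 16.2 in G1KO, 11.6, 8.61 and 7.99 in G2KO and 11.1, 7.89 and 6.88 in DKO in B cell progenitors, with overlap in both. Ppp1r15a and Ddit4 had intervals of -1.39 to 1.35 and -0.95 to 0.93 in B cell progenitors, in a fit without the replicate number. Within number, DKO minus WT in log2(CPM + 0.5) was -0.45, -0.083 and 0.12 for Ppp1r15a there. For Ddit4 it was -0.27, -0.11 and 0.21.

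**Figure D5:**
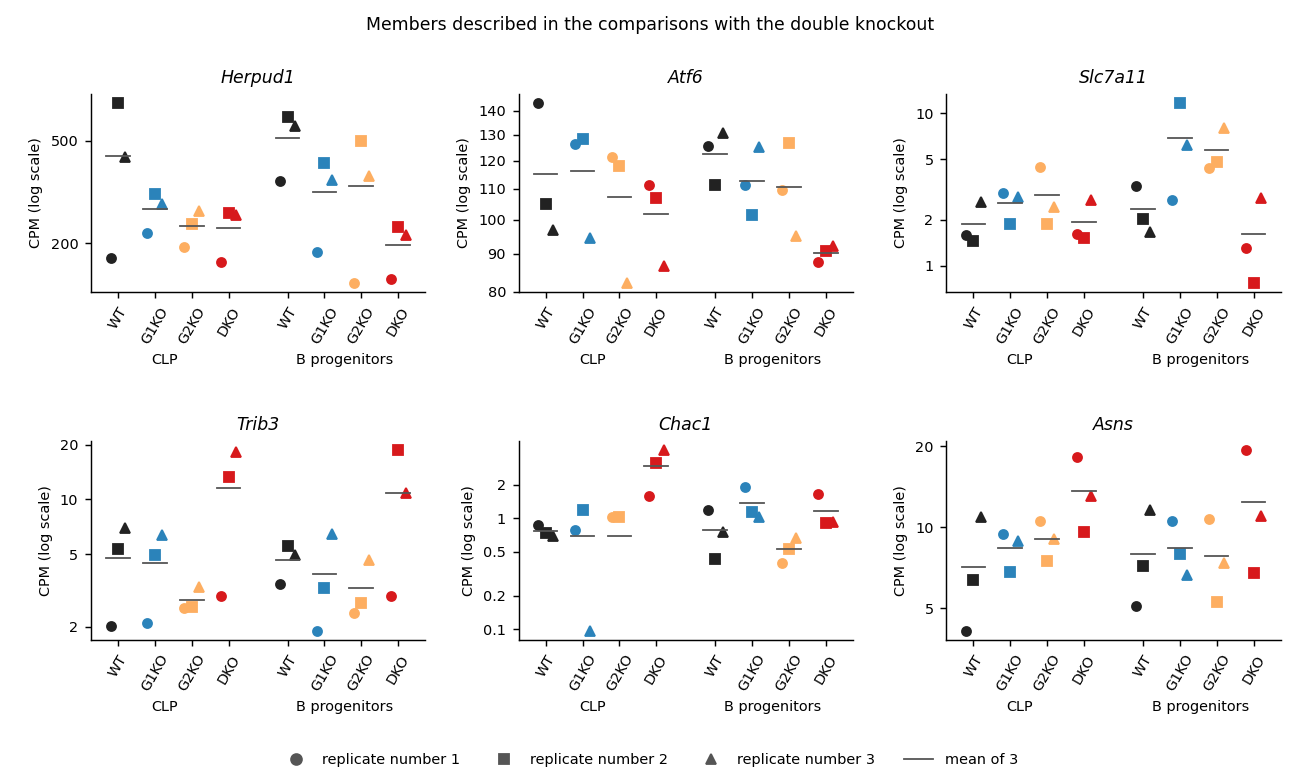
CPM on a log axis of 6 genes in the 24 libraries, by population and genotype, with the symbol for the replicate number, the colour for the genotype and a line for the arithmetic mean of 3. Chac1 stood at 0 in G2KO replicate 3 of the CLPs, which a log axis cannot show. Trib3 in DKO replicates 2 and 3 lies at 10.9 to 18.7 CPM over both populations, above every other library.

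No amino acid gene was called between DKO and WT in either population. Asns had 4.12, 6.33 and 10.9 CPM in WT, 9.43, 6.78 and 8.89 in G1KO, 10.5, 7.47 and 9.01 in G2KO and 18.2, 9.55 and 13.1 in DKO in CLPs, with WT replicate 3 inside the range of DKO and a log2 fold change of 0.92 ± 0.36 (SE, adjusted p = 0.581). Without WT replicate 3 it was 1.41. Values in B cell progenitors were 5.11, 7.19 and 11.5 CPM in WT, 10.5, 7.93 and 6.66 in G1KO, 10.8, 5.28 and 7.32 in G2KO and 19.3, 6.73 and 10.99 in DKO. The highest value in both populations was that of DKO replicate 1, the library lowest of the 3 for Trib3. Phgdh, the first enzyme of serine synthesis, had 165, 176 and 161 CPM in WT, 131, 156 and 172 in G1KO, 127, 157 and 147 in G2KO and 137, 189 and 193 in DKO in CLPs and 100.2, 143 and 127 CPM in WT, 106, 139.6 and 118 in G1KO, 117, 109 and 144 in G2KO and 113, 203 and 149 in DKO in B cell progenitors. WT and DKO overlapped in both. Psat1, the next enzyme, had 109.9, 218 and 183 CPM in WT, 154, 108 and 152 in G1KO, 131, 123 and 131 in G2KO and 157, 146 and 163 in DKO in CLPs. It had 192, 209.96 and 216 CPM in WT, 139.5, 165 and 146 in G1KO, 143, 199.98 and 220.4 in G2KO and 152, 177 and 158 in DKO in B cell progenitors, with the DKO libraries below those of WT and a log2 fold change of -0.34 ± 0.16 (SE, adjusted p = 0.404). Shmt2, the mitochondrial enzyme that takes the one-carbon unit from serine, had 145, 188 and 194 CPM in WT, 138, 172 and 188 in G1KO, 125, 151 and 148 in G2KO and 152, 177 and 184 in DKO in CLPs and 111, 181 and 161 CPM in WT, 115, 137 and 142 in G1KO, 133, 126 and 168 in G2KO and 122, 162 and 115 in DKO in B cell progenitors. Mthfd2, the next enzyme of the mitochondrial folate path, had 38.8, 95.4 and 73.3 CPM in WT, 48.8, 46.7 and 62.9 in G1KO, 45.5, 46.8 and 53.6 in G2KO and 48.005, 63.5 and 71.2 in DKO in CLPs and 67.97, 99.2 and 76.8 CPM in WT, 44.9, 62.4 and 74.6 in G1KO, 46.6, 76.4 and 83.2 in G2KO and 43.2, 69.2 and 55.5 in DKO in B cell progenitors. WT and DKO overlapped for both enzymes in each population. Psph, the last enzyme of serine synthesis, ranged over 21.9 to 29.7 CPM in CLPs and 23.7 to 33.7 CPM in B cell progenitors.

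The transporters likewise overlapped between WT and DKO. Slc7a5 (LAT1), which brings in leucine and other large neutral amino acids, had 89.4, 101 and 110.4 CPM in WT, 78.9, 162 and 119.5 in G1KO, 85.5, 117 and 87.7 in G2KO and 107, 141 and 129 in DKO in CLPs and 72.98, 90.2 and 118 CPM in WT, 78.6, 72.2 and 98.3 in G1KO, 68.5, 67.5 and 107 in G2KO and 66.2, 91.8 and 76.8 in DKO in B cell progenitors. Its heavy chain Slc3a2 had 141, 127 and 154 CPM in WT, 109.9, 207 and 158 in G1KO, 113, 161 and 126 in G2KO and 118, 198 and 155 in DKO in CLPs. It had 75.04, 123 and 145 CPM in WT, 85.9, 91.004 and 132 in G1KO, 94.4, 94.2 and 131 in G2KO and 103, 102 and 115 in DKO in B cell progenitors. Slc7a11 had 3.34, 2.04 and 1.66 CPM in WT, 2.704, 11.7 and 6.14 in G1KO, 4.38, 4.81 and 7.99 in G2KO and 1.31, 0.772 and 2.78 in DKO in B cell progenitors, where the DKO libraries lay below all G2KO libraries and overlapped G1KO by a single library. In CLPs it had 1.59, 1.46 and 2.63 CPM in WT, 3.002, 1.88 and 2.83 in G1KO, 4.42, 1.87 and 2.42 in G2KO and 1.62, 1.52 and 2.68 in DKO, with overlap of all genotypes. Its levels are low, at 4, 18 and 21 reads in the DKO libraries of B cell progenitors.

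Loss of a single isoform was compared with WT next. In CLPs 0 of 40 members were called by edgeR and 0 by DESeq2 in G1KO (0.00658% of all genes) and likewise in G2KO (0% of all genes). With an unadjusted p up to 0.05 there was 1 of 40 in G1KO (2.85%), Xbp1, and there were 2 in G2KO (3.92%), Edem1 and Herpud1. Neither tool called any of the 39 genes (0 calls) in B cell progenitors in G1KO (0.0600%) and in G2KO (0.0467%), and an unadjusted p up to 0.05 was found for 3 (9.93%) and 0 (2.84%). The 3 in G1KO were Psat1, Slc7a11 and Ern1. Slc7a11 had a log2 fold change of 1.58 ± 0.60 (SE, adjusted p = 0.467) in G1KO and 1.26 ± 0.62 (SE, adjusted p = 0.919) in G2KO. Herpud1 was lower than WT by fitted value in both single losses and both populations, at -0.69 and -0.90 in CLPs and -0.67 and -0.59 in B cell progenitors. All these comparisons and those of DKO share the same WT libraries.

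DKO was then compared with each single loss. Against G1KO, 0 of 40 members were called by edgeR in CLPs (0.0263%) and 0 by DESeq2. There 2 of 40 had an unadjusted p up to 0.05 (4.29%), Eif2ak3 and Chac1, both higher in DKO. In B cell progenitors 0 of 39 were called by edgeR (0.213%), and 4 had an unadjusted p up to 0.05 (16.6%), Trib3 and Eif2ak3 higher and Slc7a11 and Atf6 lower in DKO. DESeq2 called Slc7a11, at an adjusted p of 0.0314, and its share of calls over all genes in this comparison is not given here. Against G2KO, 0 of 40 were called by either tool in CLPs (0.0526%) and 0 of 39 in B cell progenitors (0.153%). With an unadjusted p up to 0.05 there were 2 in CLPs (7.54%), Trib3 and Chac1, both higher in DKO, and 3 in B cell progenitors (11%), Trib3 higher and Slc7a11 and Atf6 lower. Trib3 was higher in DKO than in G1KO by 1.36 ± 0.63 (SE, adjusted p = 0.9996) in CLPs and 1.496 ± 0.57 (SE, adjusted p = 0.218) in B cell progenitors on the log2 scale, and than in G2KO by 2.04 ± 0.66 (SE, adjusted p = 0.561) and 1.84 ± 0.62 (SE, adjusted p = 0.365). Atf6 in B cell progenitors was -0.34 ± 0.13 (SE, adjusted p = 0.219) against G1KO and -0.32 ± 0.13 (SE, adjusted p = 0.419) against G2KO. Slc7a11 was -2.13 ± 0.63 (SE, adjusted p = 0.167) and -1.82 ± 0.65 (SE, adjusted p = 0.380) in the same order. These comparisons share the DKO libraries. With the replicate block, for which the numbers paired the samples in CLPs and against G2KO in B cell progenitors, 17 genes were called against G1KO in CLPs in place of 4, 26 in place of 8 against G2KO, and 46 in place of 23 against G2KO in B cell progenitors. No member was among them.

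Between the populations, no member was called in any genotype, in a fit without a term for the mouse. In WT 0 of 40 were called by edgeR or DESeq2 between B cell progenitors and CLPs (3.5% of 17212 genes), in G1KO 0 (3.78%), in G2KO 0 (3.21%) and in DKO 0 (3.24%). With an unadjusted p up to 0.05 there were 2 of 40 in WT (16.1%), Ern1 and Phgdh, both lower in B cell progenitors, and 3 in G1KO (26.5%), Slc7a11 higher and both Slc7a5 and Slc3a2 lower. There was 1 in G2KO (16.2%), Psat1, which was higher, and there were 3 in DKO (14.3%), Slc7a5, Slc3a2 and Sesn2, all lower in B cell progenitors. Slc7a5 differed by -0.53 ± 0.24 (SE, adjusted p = 0.165) in G1KO and -0.68 ± 0.24 (SE, adjusted p = 0.152) in DKO, and Slc3a2 by -0.61 ± 0.25 (SE, adjusted p = 0.140) and -0.56 ± 0.25 (SE, adjusted p = 0.309). In WT both transporters had intervals that held 0, -0.59 to 0.40 and -0.82 to 0.22. The difference of the DKO effect between the populations was called for 0 of 40 members by either tool (0%), with 0 with an unadjusted p up to 0.05 (1.37%). Its intervals were wide, and 21 of 40 lay within 1 of 0. None of the 7 CLP markers or the 10 B cell progenitor markers was called between the populations in any genotype either. The populations also differed in the share of reads on no gene, as given above.

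Further genes of the same pathways, in 7 lists, were counted in DKO against WT. In CLPs none was called by edgeR in lists of 24 other ER chaperones and folding enzymes, 22 of ER-associated degradation, 34 of translocation and glycosylation, 28 of ER to Golgi transport, 20 aminoacyl-tRNA synthetases, 26 of amino acid transport and metabolism and 32 other stress regulators. In B cell progenitors 1 of 24 ER chaperones and folding enzymes was called, Txndc11, a thioredoxin-domain protein of the ER, which fell by 1.18 on the log2 scale (adjusted p = 0.00705), and 1 of 25 genes of amino acid transport and metabolism, the glutamine transporter Slc1a5, which fell by 1.23 (adjusted p = 0.0350). None was called among 22 genes of ER-associated degradation, 33 of translocation and glycosylation, 28 of ER to Golgi transport, 20 aminoacyl-tRNA synthetases (median log2 fold change -0.14) and 31 other stress regulators. With an unadjusted p up to 0.05, 5 of the 32 other stress regulators in CLPs (7.52% of all genes) and 3 of the 31 in B cell progenitors (12.3%) passed, and 0 of the 20 aminoacyl-tRNA synthetases in either population. No immediate early or heat shock gene was called in DKO against WT in either population, with medians of -0.081 and -0.38 for the former and -0.17 and -0.18 for the latter.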

How the data were processed

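The 24 libraries were the samples of 2 populations and 4 genotypes, 3 mice each, grouped by the labels. Reads were aligned by the authors to mm10 with STAR 2.5.0a, and the deposited values are raw counts of reads per gene symbol. The counting program and its strand setting are not given in the sources used here. Lines for reads on no gene or ambiguous reads were left out of library sizes. Members were matched by symbol. The 40 members and the other lists were chosen with earlier results of these data known.

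The main test of the counts was that of edgeR 4.0.16, run in R 4.3.3 (TMM sizes, filterByExpr, quasi-likelihood F-test, Benjamini-Hochberg adjustment over all genes tested), in 1 fit per population over the 4 genotypes and in 1 fit of 24 libraries for comparisons between populations. Genes with an adjusted p not above 0.05 and a log2 fold change of at least 0.5 were called. All p-values are two-sided. Those within a population measure the spread between mice. That spread includes any difference between replicate numbers, for which the main fit had no term. The fit of 24 libraries had no term for the mouse and took the libraries of a mouse as independent. CPM used the TMM sizes, and intervals are 95% intervals of the fit. Named in every sample were the sensors, the transcription factors, Hspa5, 7 amino acid genes and the 5 largest fitted differences of DKO from WT in each direction and population. Further genes described by replicate number were chosen after their values were seen, as was the test of that number. The scripts were tested on simulated data. Alternatives were RLE size factors, no filter, DESeq2 1.42.0, no minimum of the fold change, a replicate block, the share of reads on no gene, thinning, both groups alone and each library left out.

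Deviations of same-numbered libraries correlated above 0.1 in every pair for DKO against G1KO in CLPs (lowest 0.370) and DKO against G2KO in CLPs (0.236) and in B cell progenitors (0.207), which were taken as paired. Comparisons with WT and DKO against G1KO in B cell progenitors (0.0121) were not. B cell progenitors and CLPs came from the same mice, which the main fit did not model and an alternative fit took as a block. Reads on genes numbered 1479582 to 33219995 per library, and 3 reads correspond to 0.0903 to 2.03 CPM, counting error alone.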

Additional observations from a re-analysis of the deposited data

How the results depend on the processing

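No member was called between genotypes or populations under RLE size factors, without a filter, without a minimum of the fold change, with the share of reads on no gene as a covariate, after thinning or with any library left out. In B cell progenitors DESeq2 called 1 member in DKO against WT and 1 in DKO against G1KO, and edgeR on both groups alone called 1 in DKO against WT. With the replicate block 2 were called in DKO against WT, Herpud1 (log2 fold change -1.36, adjusted p = 0.00345) and Atf3 (-1.22, adjusted p = 0.0429). Over all genes the numbers did not pair these libraries, but both of these genes were called by replicate number in B cell progenitors. The block changed no other call of a member. Over all genes DKO against WT had 14 calls in CLPs by edgeR, 169 by DESeq2 and 50 with the block, and 134, 444 and 550 in B cell progenitors. The counts over all genes for DKO against G1KO by DESeq2 and for both groups alone are not given here. Members called by replicate number numbered 3 in CLPs, 11 with DESeq2 and 0 to 11 with a library left out, and 11 in B cell progenitors, 7 to 17 with a library left out. The cause was not tested, and the shares over all genes in these alternatives are not given here. The 3 shallowest B cell progenitor libraries, G2KO replicates 1 and 3 and DKO replicate 1, limit the genes read at a few CPM, and without them, a choice made after seeing the data, no member was called in DKO against WT, G1KO against WT or DKO against G1KO.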
